A study of Mus musculus with 15 samples.

Results

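The MYC family and its MAX network were examined as 8 of the 21000 protein-coding genes of the mouse annotation, in an H3K27ac peak list from a fusion-positive rhabdomyosarcoma (FP-RMS). The members were Myc, Mycn, Mycl, Max, Mxd1, Mxd4, Mxi1 and Mnt, chosen by name. Every peak that overlapped a member or the 200 kb on either side of it was taken, which gave 460 of the 122375 peaks of the list. The series held 15 CUT&RUN libraries, in which a nuclease tethered to an antibody releases the DNA beside it. They comprised 6 H3K27ac and 3 IgG libraries from MCP tumors, and 3 of each from TCP tumors. MCP mice were Myf6-Cre with Cdkn2a(Flox/Flox), Pax(3P3F/P3F) and R26-tdTom, and TCP mice carried Tek-Cre with the same 3 alleles. Both groups thus shared the loss of Cdkn2a, the knocked-in PAX3-FOXO1 (P3F) fusion and the fluorescent tdTomato marker, and differed in the driver, since Myf6-Cre acts in myogenic cells and Tek-Cre in endothelial cells. The list analyzed here is that of MCP H3K27ac replicate 5, so there are no replicates, no test between tumors was possible, and intervals cover counting error only. The other libraries were not analyzed here.

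MYC, MYCN and MYCL are transcription factors that bind DNA as dimers with MAX, at the E-box CACGTG, and activate genes of growth, ribosome production and metabolism. MXD1, MXD4, MXI1 and MNT also pair with MAX, occupy the same E-boxes and repress through SIN3 corepressors and histone deacetylases. MYCN is a known target of P3F in FP-RMS. H3K27ac marks active promoters and enhancers, so a peak near a gene shows acetylated chromatin there and is not a measure of its RNA.

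The labelled origin of the tumor was checked on marker genes. A promoter peak, meaning a peak within 2 kb of a start site, was listed for 1 of 8 myogenic markers. That marker was Myf6, whose locus drives Cre in these mice. The counts were 0 of 5 for endothelial, 1 of 5 for immune, 1 of 5 for fibroblast and 0 of 4 for hepatocyte markers, and the myogenic regulators Myod1, Myog, Myf5 and Pax7 had none. Over all protein-coding genes the share was 45.5%, so each of these marker lists was below it, and promoter peaks did not single out a lineage in this library. The surroundings of the myogenic markers differed in their medians, but not at each marker. Their windows of 200 kb on either side held a median of 51 peaks, at 2.44 times the density of the chromosome. The medians were 26 peaks and 1.39 times for endothelial, 26 and 1.28 for immune, 16 and 0.797 for fibroblast and 19 and 1.01 for hepatocyte markers, and the median ratio of all genes was 1.38. Single myogenic ratios were 0.731 at Myod1 and 1.35 at Myog, both below that of all genes. They were 2.18 to 2.82 at Pax7, Des, Cdh15 and Chrna1. At the neighboring genes Myf5 and Myf6, both on chromosome 10 with 96 window peaks each, they were 4.73 and 4.75. Their windows overlap, so these markers share peaks, and both entered the median. The library comes from many cells, so a mark in fewer cells and a weaker mark in each cell cannot be told apart.

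Depth limits every value below. Fold enrichment is the signal at the summit, the highest point of a peak, over the IgG background, and was taken from the deposited list. That background had a lowest value of 1.05, at which 47.3% of the peaks in the list lay. For those peaks it was a floor and not a local level. A constant is added to signal and background, so the fold is not their plain ratio. The list does not state a depth. Still, the fold and p of the caller together fixed a whole number of fragments over the summit of each of the 460 peaks. Fragments elsewhere in a peak are not counted, so these are not totals of a peak. The numbers of fragments ran from 7 to 84 with a median of 13, which equaled the median over the whole list. Peaks with the lowest background and equal fragments have equal folds. Peak numbers in the list skip 8 values at 4 places in the windows, of which 1 place, with 1 number, reaches the promoter of Mxd4.

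Across the family, 6 of the 8 members had a promoter peak (75%, Wilson 95% interval 40.9 to 92.9%), against 45.5% of all protein-coding genes. The activator Myc, the partner Max and all 4 repressors had one, whereas the activators Mycn and Mycl had none. The promoters of the members are rich in CpG dinucleotides, and CpG-rich promoters were marked more often in general. On a scale of 10 equal groups of genes by CpG count, the members fell in groups 6 to 10. In those groups 65.2 to 72.5% of the genes had a promoter peak, so the count of the members was near that of genes of similar base composition.

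By fold, the promoter peaks of the members were weak. Their 18 promoter peaks had a median fold of 4.89 (quartiles 3.69 and 5.65), and the 24898 promoter peaks of all protein-coding genes had one of 5.55 (4.45 and 7.11). Of the 18, 6 were at Mnt and 5 at Myc. The strongest promoter peak of a gene had a median fold of 7.24 over the 9562 genes with one, and 5 of the 6 members with one lay below it. In the strongest 25% of the list by -log10 q, the adjusted significance of a peak in the caller's model, 1 member kept a promoter peak, Mxd4. In that part of the list 29.3% of all genes kept one.

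The summits also lay off the start sites. Of the 18 summits, 2 were within 500 bp of the nearest start site (11.1%), and the median distance was 1060 bp. For the promoter peaks of all genes, 35.5% were within 500 bp and the median distance was 675 bp.

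**Figure D1:**
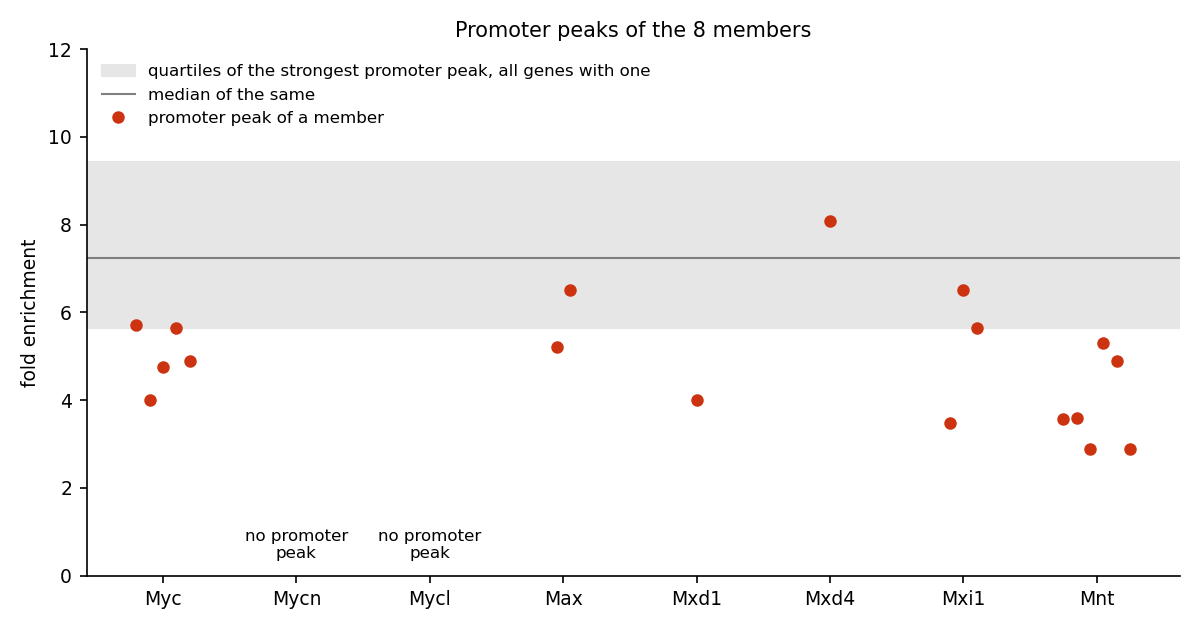
Fold enrichment (vertical axis) of each promoter peak of the 8 members, drawn from left to right in the direction of transcription. The grey band spans the quartiles (5.65 and 9.43) and the line the median (7.24) of the strongest promoter peak over all genes with one. The single peak of Mxd4 is above the line, the other 17 points are below it, and Mycn and Mycl have none.

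Around the genes, in contrast, peaks were dense. The 8 windows spanned 3.35 Mb and held 137 peaks per Mb, against 44.9 per Mb over the genome. Since chromosomes differ in peak density, each window was also set against its own chromosome, and the ratio over the 8 windows was 2.65. The ratio of a single gene had a median of 1.38 over all genes (quartiles 0.553 and 2.33), and 6 members lay above the upper quartile.

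By density, the excess was in the gene spans and from 10 kb outward, and not in the first 10 kb around the genes. Within the gene spans the members had 176 peaks per Mb, from 27 peaks, and all genes had 80.6, but per gene the members had fewer, with a mean of 3.38 against 3.80. From the gene to 10 kb on either side there were 62.5 peaks per Mb around the members, fewer than the 90.1 per Mb around all genes. Between 10 and 50 kb the densities were 109 and 74.3 per Mb, between 50 and 100 kb 116 and 75.6 per Mb, and between 100 and 200 kb 163 and 73.8 per Mb. Pooled over the 8 windows, the excess outside the gene thus grew with each step in distance, but single members differed. Mxi1 and Mnt held 30 and 20 of the 70 peaks at 10 to 50 kb, where Mxd4 had 0. Myc and Max held 38 and 22 of the 93 at 50 to 100 kb, where Mycl and Mxd4 had 0. At 100 to 200 kb Mnt held 72, Mycn 11 and Mxd4 8. Of the 460 peaks, 260 were 100 to 200 kb away, 93 were 50 to 100 kb away and 70 were 10 to 50 kb away. Only 4 lay closer without touching a promoter, 15 were in gene bodies, and 18 (3.91%, Wilson 95% interval 2.49 to 6.10%) were at member promoters.

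**Figure D2:**
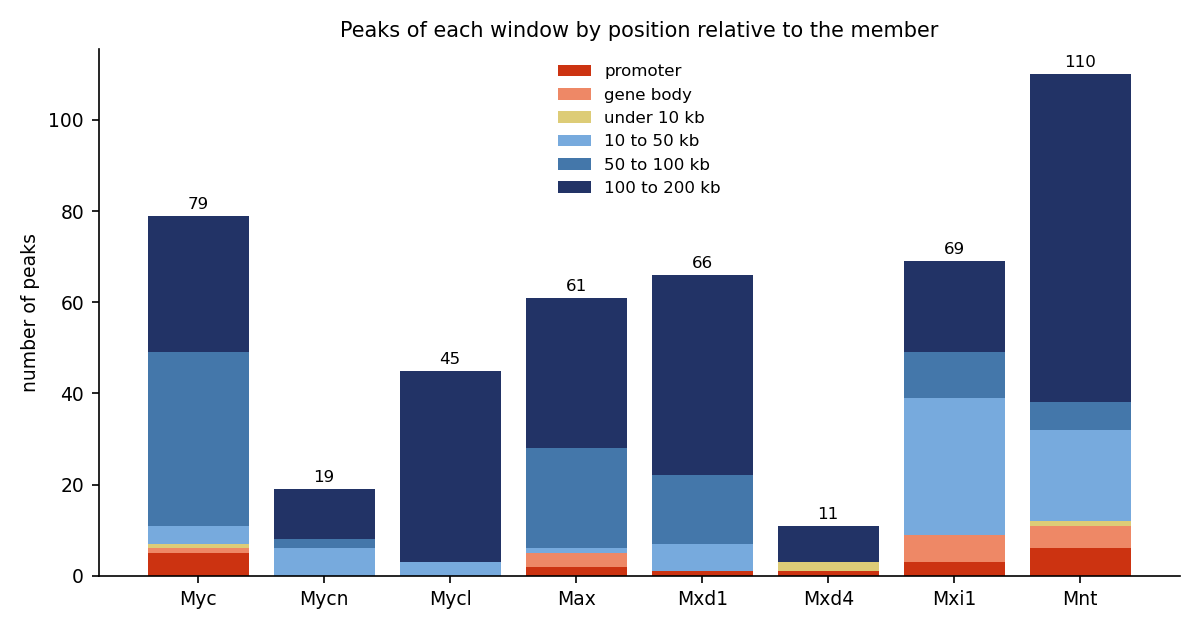
Number of peaks in the window of each member (vertical axis), divided by position into promoter, gene body and 4 bins of distance from the gene. The totals run from 11 for Mxd4 to 110 for Mnt, and 260 of the 460 peaks are in the bin of 100 to 200 kb.

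Most of these peaks were nearer to other genes. The start site nearest to the summit was that of the member for 73 of the 460 peaks (15.9%), of which 31 belonged to Max and 13 to Mycn. By position 280 summits lay in introns, 160 in intergenic sequence and 20 in exons. A peak in a window is therefore a neighbor of the member and was not assigned to it.

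**Figure D3:**
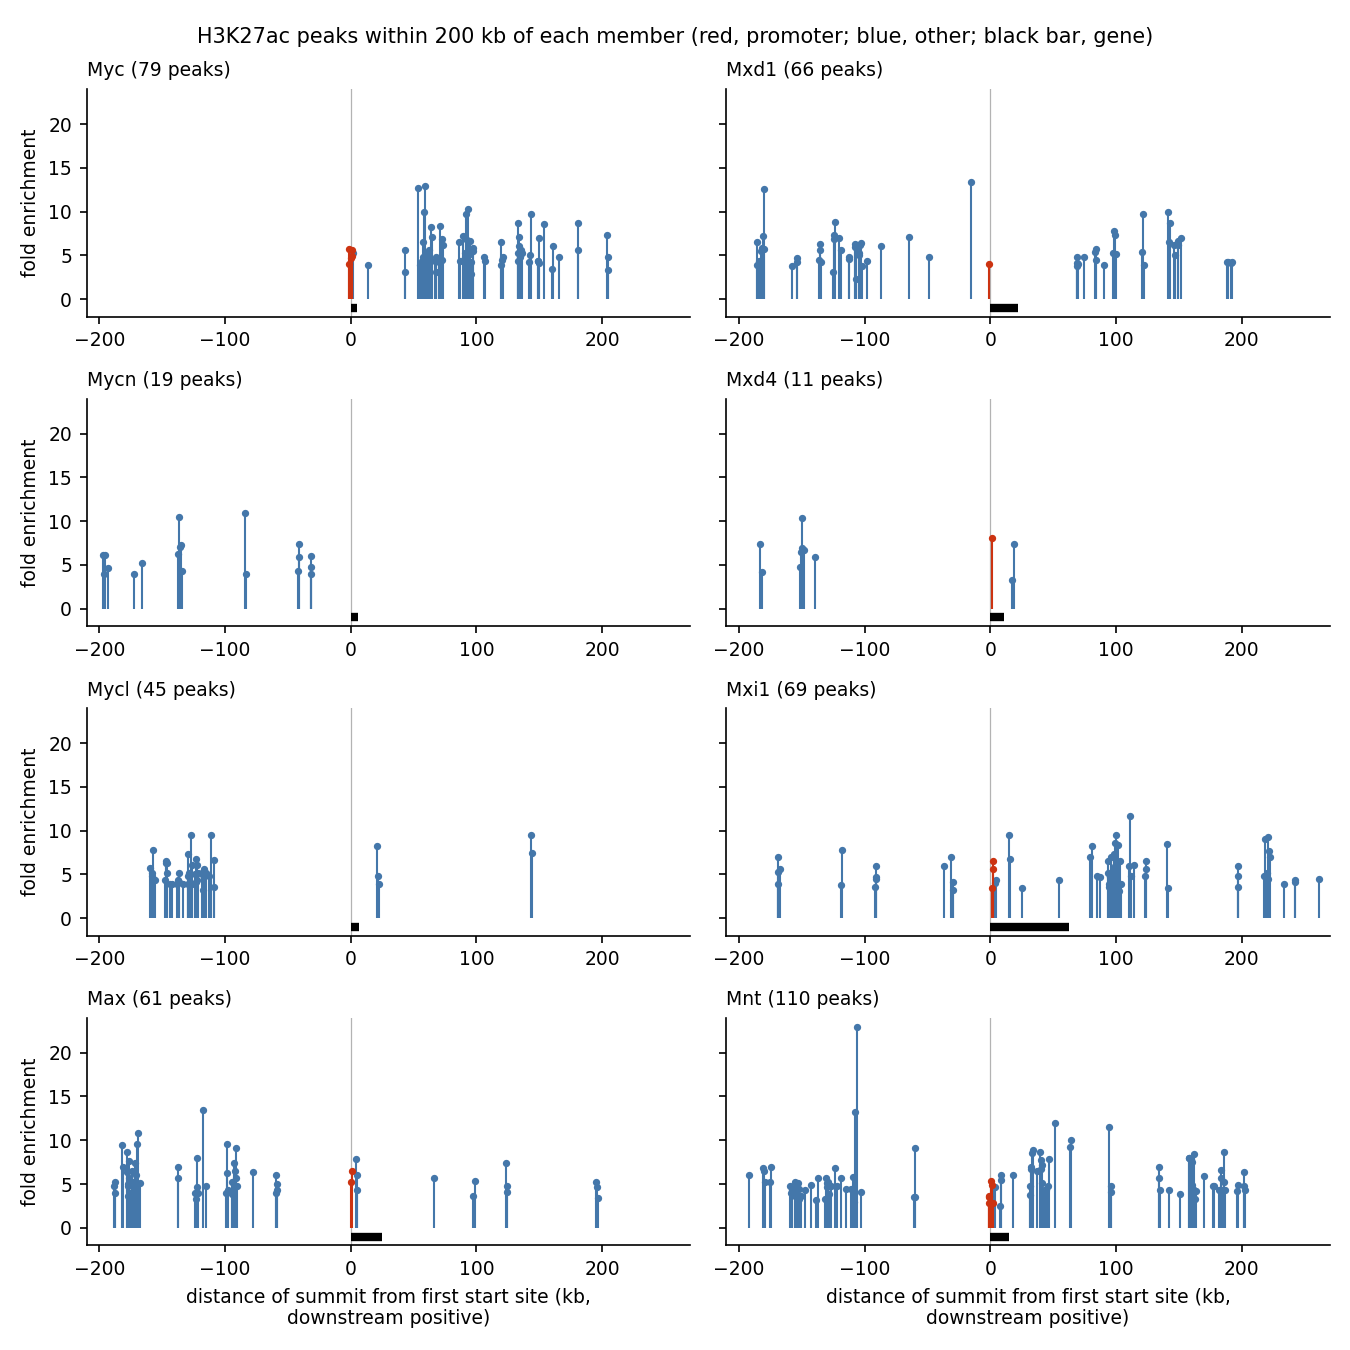
Fold enrichment of each peak (vertical axis) against the distance of its summit from the first start site of the member in kb (horizontal axis, downstream positive), with 1 panel per member. Red marks promoter peaks, blue other peaks and the black bar the gene. Peaks of Mycn lie upstream only, those of Myc nearly all downstream, and the highest point is near -106 kb in the window of Mnt, with a fold of 22.96.

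Myc, the founding member and an activator in proliferating cells, had 5 promoter peaks on chromosome 15, where the gene spans 61985341 to 61990361 of the mm10 genome build. Going in the direction of transcription, their folds were 5.72, 4.01, 4.76, 5.64 and 4.89, with 13, 9, 15, 18 and 11 fragments. The summits of the first pair lay 1275 and 1085 bp upstream of the start site, and those of the others 584, 726 and 1264 bp downstream, so the peaks flanked a gap over the start site. This was more promoter peaks than at 93.0% of all genes, while the strongest of them ranked at percentile 27.2 of the genes with one. When fold times width was summed over the promoter instead, Myc ranked at percentile 55.4.

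The Myc window was lopsided. Downstream of the gene lay 73 of its 79 peaks, and 2 lay upstream, both of them at the promoter. The 3 strongest peaks outside the promoter were in introns of Pvt1, a noncoding RNA gene next to Myc. Their folds were 12.97 at 58.9 kb with 29 fragments, 12.7 at 53.7 kb with 42 fragments and 10.3 at 93.5 kb with 25 fragments. The peak at 53.7 kb was 1858 bp wide and its summit was 181 bp from the Pvt1 start site. For 59 of the 79 peaks the nearest start site was that of Pvt1, and for 7 that of Myc. The window held 3.55 times the peak density of chromosome 15, a ratio above that of 91.3% of all genes.

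Mycn, the member named as a P3F target, had no promoter peak and no peak in its body. The gene spans 12936093 to 12941836 on the minus strand of chromosome 12. No peak number was absent in its window. The nearest summit was 31.2 kb upstream, and 32.1% of all genes had theirs farther away. On the other side of the start site the next summit came after 570 kb.

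All 19 peaks of the Mycn window were upstream, in intergenic sequence, and they fell into 5 groups. The 6 peaks of the first group, 31.2 to 42.2 kb away, had folds of 3.93 to 7.37. At 84.1 kb lay the strongest, with a fold of 10.9, a width of 1259 bp and 36 fragments (exact Poisson 95% interval 25.2 to 49.8). At 136 kb a peak of 1394 bp with a fold of 10.4 and 46 fragments (33.7 to 61.4) was flanked by 4 weaker ones. For these 13 peaks Mycn had the nearest start site. For the last 6, with folds of 3.99 to 6.08, it was Ddx1, an RNA helicase gene. With 46.8 peaks per Mb the window was 1.16 times as dense as chromosome 12, below the median ratio of all genes. Its peaks were few, and their median fold was 5.95 against 5.22 over the list. By other measures they were not stronger, with a median of 13 fragments, as over the list, and a median width of 122 bp against 163 bp.

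The summits of the 3 strongest Mycn peaks are shown because they had the highest folds in its window. By fragments the order differs, since the peaks at -135.9 kb (fold 7.10) and -134.9 kb (7.33) had 39 and 32 fragments, more than the 16 of the peak at -41.5 kb (7.37). Each sequence is the plus strand of GRCm38, the assembly of mm10, from 75 bp before to 75 bp after the summit. Capitals would mark CACGTG, the E-box CAGCTG of MYOD1, the forkhead motif GTAAACA, the PAX paired domain core GTCACG, the AP-1 motif TGANTCA or the PAX3 homeodomain pair of TAAT and ATTA 2 or 3 bases apart, on either strand. None of these was found in the 3 stretches.
Mycn -84.1 kb (chr12:13025864-13026014): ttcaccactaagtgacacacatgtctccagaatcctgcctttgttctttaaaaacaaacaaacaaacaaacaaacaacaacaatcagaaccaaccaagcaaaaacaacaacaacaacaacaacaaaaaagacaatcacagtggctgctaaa
Mycn -136 kb (chr12:13078252-13078402): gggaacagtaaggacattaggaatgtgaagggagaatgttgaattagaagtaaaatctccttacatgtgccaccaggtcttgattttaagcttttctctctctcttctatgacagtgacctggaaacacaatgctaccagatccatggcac
Mycn -41.5 kb (chr12:12983227-12983377): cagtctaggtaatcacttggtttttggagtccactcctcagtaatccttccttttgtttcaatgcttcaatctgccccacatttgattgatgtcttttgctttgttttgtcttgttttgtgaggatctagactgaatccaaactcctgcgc

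Mycl, the third activator, also had no promoter peak and no peak in its body, although its start site was richer in CpG than that of Mycn, with 84.9 against 57.9 CpG per kb. It spans 122995931 to 123002485 on chromosome 4. Of the genes in its CpG group 70.8% had a promoter peak. The nearest summit was 21.2 kb downstream and the next one upstream was 109 kb away. Of the 45 window peaks 42 were more than 100 kb from the gene, and in none of them was Mycl the nearest start site.

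The 3 strongest peaks near Mycl shared a fold of 9.53 and 21 fragments. Those at -127 and -111 kb lay in introns of Cap1, which encodes an actin regulator, and that at 144 kb lay in an intron of Ppie, which encodes a cyclophilin. Cap1 was nearest to 23 peaks and Ppt1 to 17. The Mycl window was 2.60 times as dense as its chromosome, but when only 100 kb on either side was taken the ratio fell to 0.341, so the acetylated chromatin of this window was at its edge.

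Max, the shared partner of both arms of the network, spans 76937269 to 76962248 on the minus strand of chromosome 12 and had 2 promoter peaks. One lay at the start site itself, in an exon 100 bp downstream, with a fold of 5.22 and 11 fragments. The other was in the adjoining intron 1286 bp downstream, with a fold of 6.51 and 14 fragments. Their Poisson intervals, 5.49 to 19.7 and 7.65 to 23.5, overlapped. Another 3 peaks followed in introns 4.17 to 4.85 kb downstream, with folds of 7.80, 6.08 and 4.36, and the first of them exceeded both promoter peaks.

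Upstream of Max lay 47 of its 61 peaks. The strongest, 118 kb away, had a fold of 13.4 with 30 fragments (20.2 to 42.8) and was 3120 bp wide, the widest in any of the 8 windows. It was intergenic with Max at the nearest start site, as was a peak at -98.7 kb with a fold of 9.53. The peak at -169 kb, with a fold of 10.8, was nearest to Fut8, a fucosyltransferase gene. Max and Mycn are on the same chromosome, and the Max window had 3.55 times its density where the Mycn window had 1.16. The strongest distal peak and the intron peak at the Max promoter are printed below in the same way, and neither holds a motif of the set.
Max -118 kb (chr12:77079943-77080093): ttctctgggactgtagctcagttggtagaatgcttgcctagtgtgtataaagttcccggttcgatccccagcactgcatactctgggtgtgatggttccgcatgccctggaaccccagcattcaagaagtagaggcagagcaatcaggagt
Max +1286 bp (chr12:76960887-76961037): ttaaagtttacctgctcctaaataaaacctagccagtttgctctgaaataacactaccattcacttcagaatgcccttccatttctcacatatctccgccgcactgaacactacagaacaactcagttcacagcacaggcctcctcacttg

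The 4 repressors each had a promoter peak, but with little in common beyond that. Mxd1, which rises as cells differentiate, spans 86647044 to 86669159 on the minus strand of chromosome 6. It had 1 promoter peak, 919 bp upstream and 81 bp wide, with a fold of 4.01 and 14 fragments. Among genes with a promoter peak this fold was at percentile 4.34, the lowest of the members.

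The strongest peak of the Mxd1 window was 15.0 kb upstream, with a fold of 13.4 and 30 fragments, in an intron of Snrnp27 and 311 bp from the start site of that splicing factor gene. The next, at -180 kb, had a fold of 12.6 and 84 fragments, the most of any window peak, at the start site of the kinase gene Aak1. The peak at 142 kb, with a fold of 9.96, was at the start of 1600020E01Rik. The 3 strongest peaks in this window thus stood at start sites of other genes. Of 66 peaks 1 had Mxd1 at the nearest start site. For comparison with the Mxd1 promoter, the summit of the peak at -15.0 kb is shown, which holds none of the motifs.
Mxd1 -15.0 kb (chr6:86684105-86684255): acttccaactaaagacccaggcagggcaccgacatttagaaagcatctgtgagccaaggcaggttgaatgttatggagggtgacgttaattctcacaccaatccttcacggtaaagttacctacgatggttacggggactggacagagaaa

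Mxd4, another repressor of the MXD group, spans 34176580 to 34187710 on the minus strand of chromosome 5. Its single promoter peak was the strongest of any member, with a fold of 8.09 and 18 fragments (10.7 to 28.4), in an intron 1055 bp downstream of the start site. It was 103 bp wide, and with fold times width the rank of Mxd4 among genes with a promoter peak fell from percentile 61.0 to 11.9. The absent peak number lies between this peak and the next one upstream, 139 kb from the start site, so whether a further promoter peak was called is not known here. Without Mxd4, 5 of the other 7 members had a promoter peak. The summit of its peak is shown because it was the only member promoter left among the strongest peaks.
Mxd4 +1055 bp (chr5:34186580-34186730): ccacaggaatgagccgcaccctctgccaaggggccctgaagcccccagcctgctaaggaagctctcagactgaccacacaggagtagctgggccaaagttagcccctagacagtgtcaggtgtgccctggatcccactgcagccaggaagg

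The Mxd4 window was the poorest of the 8. It held 11 peaks, which is 0.594 times the density of chromosome 5, and 24.3% of all genes had fewer. The strongest peak outside the promoter, with a fold of 10.4, was 149 kb upstream in an intron of Rnf4, a ubiquitin ligase gene. Those that followed, both with a fold of 7.37, were at Haus3, 18.8 kb downstream, and at Fam193a, 183 kb upstream.

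Mxi1, also called MXD2, had 5 curated RefSeq start sites and was the only member with more than 1 in that annotation. It spans 53310506 to 53373293 on chromosome 19. At the first pair of start sites lay 3 promoter peaks, of which 1 was within 2 kb of both and the others of the second alone. In order, they had folds of 3.47, 6.51 and 5.65 and 8, 14 and 12 fragments. The first of these had its summit 43 bp downstream of the second start site, the closest of any member. The other 3 start sites lay further downstream and had no peak within 2 kb, the next summits being 3.44 to 4.43 kb upstream and 5.09 to 6.08 kb downstream of them. In the gene body 6 more peaks were listed, and 1 of them, between both sets of start sites, had a fold of 9.56 and 24 fragments, above each of the promoter peaks.

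Outside the gene, 28 of the 69 peaks of the Mxi1 window were nearest to Smndc1, which encodes a splicing protein. Of the 3 strongest, 2 were intergenic at 111 and 99.9 kb downstream of the first start site, with folds of 11.7 and 9.53. Both hold CAGCTG within 75 bp of the summit. A weaker peak of this group, at 103 kb with a fold of 6.51, holds CACGTG. Within 100 bp of the summit, CAGCTG was in 6 of the 69 peaks (8.70%, against 10.0% of the whole list). CACGTG was in 4 (5.80%, against 2.66%), the most CACGTG peaks of the 8 windows. The summits of the 3 peaks named here are shown with the motifs in capitals.
Mxi1 +111 kb (chr19:53421653-53421803): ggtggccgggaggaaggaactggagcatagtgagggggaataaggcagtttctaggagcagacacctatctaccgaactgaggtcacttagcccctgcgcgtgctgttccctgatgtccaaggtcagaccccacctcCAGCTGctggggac
Mxi1 +99.9 kb (chr19:53410369-53410519): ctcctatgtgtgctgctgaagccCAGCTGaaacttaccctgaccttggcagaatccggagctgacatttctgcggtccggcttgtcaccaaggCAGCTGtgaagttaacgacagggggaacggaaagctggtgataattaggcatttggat
Mxi1 +103 kb (chr19:53413835-53413985): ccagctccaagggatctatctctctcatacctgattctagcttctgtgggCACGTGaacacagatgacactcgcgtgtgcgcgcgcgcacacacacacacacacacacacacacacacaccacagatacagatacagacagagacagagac

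Mnt, the repressor expressed most widely in proliferating and resting cells alike, spans 74830924 to 74845725 on chromosome 11, the chromosome with the highest peak density. It had 6 promoter peaks, more than 96.4% of all genes, with folds between 2.89 and 5.31. The background under them was high, at 2.18 to 7 fragments where the promoter peaks of Myc, Max, Mxd4 and Mxi1 had 1.05 to 2.00. As at Myc, the summits flanked the start site, 3 of them 795 to 1294 bp upstream and 3 of them 690 to 1884 bp downstream. The strongest had 18 fragments, as many as the peak of Mxd4, over a background of 2.18 against 1.09, so equal fragments gave a lower fold.

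The Mnt window held 110 peaks, more than those of 98.0% of all genes. Against its peak-rich chromosome the ratio was 3.34, and against the whole genome it was 5.91. The highest fold in any of the 8 windows was here, at 22.96 with 56 fragments (42.3 to 72.7), in intergenic sequence 106 kb upstream of Mnt and 435 bp from the start site of Pafah1b1. Another peak in an exon of Pafah1b1, at -108 kb, had a fold of 13.2. Pafah1b1 encodes a regulator of the dynein motor. Downstream, at 51.3 kb, a peak in an intron of Sgsm2 was 2422 bp wide. The summit of the highest peak is shown, and it holds no motif of the set.
Mnt -106 kb (chr11:74724744-74724894): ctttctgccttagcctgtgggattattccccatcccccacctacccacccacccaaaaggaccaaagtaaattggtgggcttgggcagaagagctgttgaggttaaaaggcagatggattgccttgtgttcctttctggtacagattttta

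Ordered by the fold of the strongest promoter peak, the members with one were Mxd4 (8.09), Max and Mxi1 (6.51 each), Myc (5.72), Mnt (5.31) and Mxd1 (4.01). The fragments behind these folds were 18, 14, 14, 13, 18 and 14, over backgrounds of 1.09, 1.05, 1.05, 1.19, 2.18 and 2.34. Every Poisson interval of the fragments overlapped every other. These intervals do not cover the background, so whether neighbors in the order of folds differ was not tested. Ordered by peak density over that of the chromosome, Myc and Max (3.55 each) and Mnt (3.34) came first, then Mxi1 (2.90), Mxd1 (2.63) and Mycl (2.60), and Mycn (1.16) and Mxd4 (0.594) came last. The order by promoter and the order by density thus differed, with Mxd4 at the top of the former and the bottom of the latter.

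**Figure D4:**
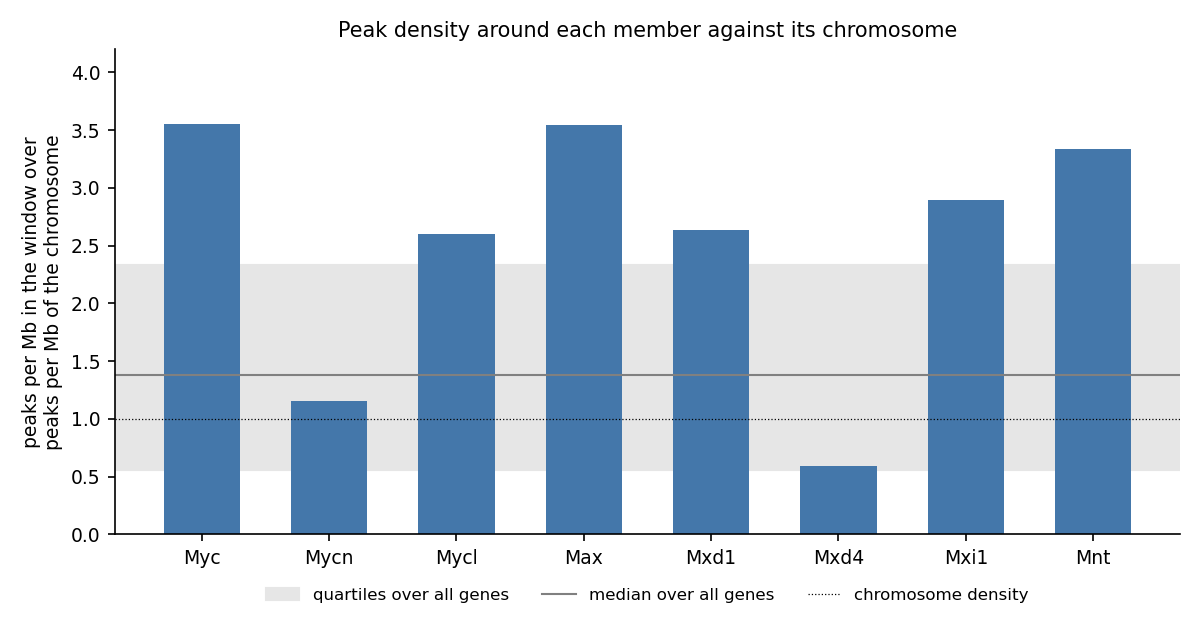
Peak density in the window of each member divided by that of its chromosome (vertical axis, bars). The grey band spans the quartiles (0.553 and 2.33) and the line the median (1.38) of the same ratio over all genes. The bars of Myc, Mycl, Max, Mxd1, Mxi1 and Mnt reach above the band, and those of Mycn and Mxd4 lie below the line.

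Dense groups of peaks were then stitched, joining neighboring peaks at the distance given in the study's methods after leaving out those within 1 kb of a start site, and ranked by summed fold times width. Of 20840 clusters 864 passed the slope limit that is used to call super-enhancers. A cluster above the limit lay in the windows of Myc, Mycl, Max, Mxi1 and Mnt, which is 5 of 8 members (62.5%, Wilson 95% interval 30.6 to 86.3%), against 20.2% of all genes. None overlapped a member, against 4.51% of all genes, and 0 of 8 allows a share of up to 37.5%.

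The highest of these clusters were in the Mnt window. Both were downstream, 1 over Sgsm2 at rank 458 and the other over Smg6 at rank 464, with 19 and 40 peaks. In the Myc window a cluster of 41 peaks over Pvt1, 86.1 to 166 kb downstream, had rank 561, and another over Pvt1 with 25 peaks just missed the limit at rank 943. The cluster of the Mxi1 window, intergenic and 80.5 to 124 kb from its first start site, had rank 663, that of the Max window rank 705 and that of the Mycl window, over Cap1 and Ppt1, rank 709. The best cluster of the Mycn window, the 5 peaks at about 136 kb, had rank 2117. At the genes themselves the best was that of Max, at rank 5761.

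Since the network binds E-boxes, the motif was sought in the members' own regulatory sequence. Within 100 bp of the summit CACGTG was found in 9 of the 460 window peaks (1.96%), against 2.66% of all peaks of the list. It was in 4 peaks of the Mxi1 window, 2 of Mxd1, and 1 each of Myc, Mycl and Max. None of the 18 promoter peaks held it, a count that allows a share of up to 16.7%. The other motifs are given with their share in the whole list. CAGCTG was in 53 window peaks (11.5%, against 10.0%), TGANTCA in 36 (7.83%, against 8.05%), GTAAACA in 11 (2.39%, against 3.27%), GTCACG in 9 (1.96%, against 2.58%) and the PAX3 homeodomain pair in 1 (0.217%, against 0.883%). GTCACG can run into the E-box as GTCACGTG, and 1 window peak held both. In the Mycn window none of the 19 summits held any of the 6 motifs other than TGANTCA.

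Promoter sequence gave another view, since the summits lay off the start sites. RefSeq promoter windows from 250 bases before to 50 after the start were at hand for the members other than Myc, with 9 windows for 7 genes, and 3 of the 9, those of Max, Mxd4 and Mnt, held CACGTG. Of all 32851 such windows 7.15% did. That share includes CpG-poor promoters, the motif itself holds a CpG, and no share matched for CpG was taken. GTCACG was in those of Max and Mycl (against 8.22% of all windows) and GTAAACA in 1 of the 3 of Mxi1 (3.65%), and no member window held another motif of the set. The E-box began 3 bp upstream of the start site in Max, 219 bp upstream in Mxd4 and 123 bp upstream in Mnt. That of Max crosses the edge of the motif window of the promoter summit 100 bp downstream, and was therefore not counted there. The sites are printed on the strand of the gene with the E-box in capitals, since the partner and 2 repressors of the network thus carry its motif.
Max promoter (chr12:76962234-76962263, minus strand): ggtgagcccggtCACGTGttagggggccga
Mxd4 promoter (chr5:34187912-34187941, minus strand): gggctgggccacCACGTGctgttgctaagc
Mnt promoter (chr11:74830789-74830818, plus strand): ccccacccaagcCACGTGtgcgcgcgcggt

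Other genes of the network were set beside the members. Of 5 MAX network genes that are not members, 3 had a promoter peak (60%, Wilson 95% interval 23.1 to 88.2%), near the 45.5% of all genes. The strongest were at Mlx (fold 10.3, 3 peaks), the MAX-like partner of the glucose-responsive MONDO factors, and at Mga (6.74, 1 peak), a large MAX partner. Mlxip had 1 weak peak (3.50), and Mlxipl and Mxd3 had none.

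All 15 genes for MYC turnover and cofactors had a promoter peak (Wilson 95% interval 79.6 to 100%), against 45.5% of all genes. In the CpG groups 6 to 10 the share was 65.2 to 72.5%, and no share matched for CpG was taken. In the strongest 25% of the list 9 of the 15 kept one, against 29.3% of all genes. The list was chosen with earlier results of these data known, and the difference was not tested. Their strongest folds had a median of 6.51. They ran from 4.46 at Ruvbl2, a helicase, to 14.8 at Gsk3b, a kinase that marks MYC for degradation. Fbxw7, the ubiquitin ligase subunit that recognizes MYC, had 6 promoter peaks, the strongest with a fold of 10.8. Skp2 (8.24), Huwe1 (8.31) and the histone acetyltransferase scaffold Trrap (7.67) were between them. Of 5 corepressor genes for the MXD and MNT proteins 3 had a promoter peak (60%, Wilson 95% interval 23.1 to 88.2%, against 45.5% of all genes), with 9 peaks and a fold of 8.68 at Sin3a and 8.67 at Sin3b. Hdac2 had a fold of 4.77, and Hdac1 and Sap30 had none.

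Among 15 known MYC targets 12 had a promoter peak (80%, Wilson 95% interval 54.8 to 93.0%), with a median strongest fold of 7.85. The share was 45.5% over all genes and 65.2 to 72.5% in the CpG groups 6 to 10, and no share matched for CpG was taken. The targets were chosen by name and are not replicates, so the difference was not tested. The highest were at Ldha (11.7), an enzyme of glycolysis, and at Nop56 (10.4), a ribosome biogenesis factor. Ncl (9.10) and Odc1 (9.02), which makes polyamines, followed, and Ccnd2, Srm and Tert had none. Among 7 known P3F targets 2 had a promoter peak (28.6%, Wilson 95% interval 8.22 to 64.1%), against 45.5% of all genes. This difference was not tested either. These were Met (9.96) and Cnr1 (6.94), whereas Fgfr4, Alk, Myod1, Myog and Tfap2b had none. Mycn shared with those 5 the absence of a promoter peak. Its nearest summit, 31.2 kb away, was closer than that of Myog (56.1 kb), Alk (224 kb) or Tfap2b (556 kb) and farther than that of Fgfr4 (18.3 kb) or Myod1 (26.0 kb).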

How the data were processed

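Tumors were dissociated, live cells were sorted, and H3K27ac was profiled by CUT&RUN in a single MCP library, with IgG as its control. According to the study's methods, the authors mapped read pairs to mm10 with bowtie, discarded problematic regions and an amplified region, and called peaks against IgG with MACS at a threshold on p. The submitters' processing notes name BWA, SAMtools and MACS2, and the builds mm10 and dm6, and the largest q in the list is 0.0471, so the aligner, the caller's release and the threshold behind the list are not settled here. In the deposited list the score of a peak equals 10 times its -log10 q, cut to a whole number, in all peaks. Its fold enrichment is a ratio over the local background, and its -log10 p and -log10 q are p-values and q-values of the authors' caller. The deposited summit offset, a position and not a level, gave the summit. These values were used only to describe and rank peaks.

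Peaks were placed on the RefSeq annotation of GRCm38.p6, whose chromosome lengths fit the mm10 coordinates, with 31601 curated start sites. Promoter peaks had 1 bp or more within 2 kb of one, as in the study. Fragments over the summit were solved from fold and p with a scaling factor of 0.885 between the libraries. Of the peaks, 99.9% had a single solution within 0.001 of the -log10 p, against 0% with a factor 3% off. Shares have Wilson 95% intervals and fragments exact Poisson 95% intervals. The shares that a count of 0 allows are not Wilson limits but 3 divided by the number examined, an approximation. Motifs were sought on both strands within 100 bp of the summit, and CpG was counted within 500 bp of the start site, at the richest start site of a gene. Peaks of 1 list are not replicates, so no test was made. Named were the 8 members, their promoter peaks, the 3 strongest other peaks of each window, and fixed gene lists. Members and lists were chosen with earlier results of these data known. Alternatives were stricter peak sets, other promoter and window sizes, merging, other stitching, another annotation and a narrower motif window. Steps were checked on simulated data, with Python 3.11.15, pandas 2.3.3 and scipy 1.17.1.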

Additional observations from a re-analysis of the deposited data

How the results depend on the processing

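No paired analysis was possible because a single library leaves nothing to pair. Of 42 recomputed values that answer a comparison, 24 stayed within 1.5 times the reported one, or within its interval for a share, and 18 moved. With only peaks of a -log10 q of at least 5 the windows held 225 peaks and the promoters 9. In the strongest 25% of the list 1 member and 6154 genes had a promoter peak, with 135 window peaks, 1 promoter peak (0.741% of the window peaks) and 23 of the 47 network list genes. A promoter of 1 kb left 9 promoter peaks, or 1.96% of the window peaks, at the same 6 members. Windows of 100 and 500 kb held 200 and 977 peaks, with 9% and 1.84% at member promoters. When peaks under 1 kb apart were merged, 175 window peaks and 10 promoter peaks remained, and the median per window went from 63.5 to 21.5. Ranked by summed fold times width, the median percentile of the promoters went from 32.3 to 21.1. Why these values moved was not tested.

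The count of members with a promoter peak was 5 or 6 under every other alternative, including GENCODE start sites, with Mxd1 lost at the stricter q, and 5 of 7 without Mxd4, which was chosen after seeing the data. The density ratio of 2.65 ranged from 2.20 to 3.06. Clusters above the limit were in the windows of the same 5 members in all 3 stitching alternatives. Of 82 values for single members, lists or motifs, 27 moved, and 2 density ratios crossed 1, that of Mycl, at 0.341 with 100 kb, and that of Mycn, from 1.16 to 0.961 with 100 kb and 0.885 with 500 kb. Window peaks had 7 fragments or more, and an unlisted promoter does not show that the mark is absent there.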

Other observations

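The windows of the 8 members held start sites of 51 other genes, noncoding genes included, and 30 of these (58.8%) had a promoter peak, against 45.5% of all protein-coding genes. Around Mnt it was 8 of 9 and around Mxd1 8 of 10, while neither of the 2 other genes near Mycn had one. The only other gene in the Myc window, Pvt1, had 2 promoter peaks, the stronger with a fold of 12.7. At Anxa4, an annexin gene in the Mxd1 window, 11 promoter peaks were listed, with a highest fold of 8.80. Of the other genes with a promoter peak, the strongest fold was above that of the member at 8 of 8 around Mnt, 8 of 8 around Mxd1 and 3 of 3 around Mxi1, but at 1 of 4 around Mxd4 and 1 of 2 around Max. Examples are Snrnp27 (13.4) beside Mxd1 (4.01) and Pafah1b1 (22.96) beside Mnt (5.31). Anxa4 and the examples were picked after their values were seen, genes with overlapping promoters can share a peak, and the differences were not tested.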
